A study of Mus musculus with 72 samples.

Results

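The 7 genes described here make, bind, cut and modify hyaluronan: the synthases Has1, Has2 and Has3, the receptor Cd44, the hyaluronidases Hyal1 and Hyal2, and Tnfaip6, which encodes the hyaluronan-binding protein TSG-6. They were chosen by symbol, not by any measured value, from the 50600 genes of the count table, and each was read in all 72 RNA-seq libraries. The libraries came from 6 mouse melanoma lines, which were kept for 18 h in 0.5% fetal calf serum and then treated for 4 h in the same medium with 0.1% DMSO (mock), with 10 nM gastrin-releasing peptide (GRP), with 1 µM RC-3095 (RC, an antagonist of the GRP receptor GRPR) or with GRP and RC together. Each line and treatment had 3 replicates. The comparisons ask whether GRP changed these genes in cells with the receptor, whether RC removed that change, and how the lines differed at rest.

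All lines were grown from tumours of transgenic mice and carry Tyr::NRASQ61K/°, an activated NRAS driven by the tyrosinase promoter of pigment cells. The female ∆Ecad lines 1057 and 1064, labelled GRPR-positive, also carry Cdkn2a-/-, Tyr::CreA/° and Cdh1dF/dF. The male line 1181 carries Cdkn2a-/- and, in its label, Cdh1dF/dF without Cre, and the female line 1014 has the NRAS transgene as its sole listed allele. Both of these Ecad lines were used in a version with CMV::Grpr/tGFP, in which the viral CMV promoter drives Grpr from a transfected plasmid (1181-Grpr, 1014-Grpr), and in a control version with CMV::tGFP (1181-Ctrl, 1014-Ctrl). Each genotype other than ∆Ecad is thus 1 line in 2 versions. The study's methods describe cell culture experiments as biological triplicates, and the labels do not say which cultures the 3 libraries of a group came from, so p-values measure the spread between these libraries of each line.

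Hyaluronan is a long unbranched sugar chain that the HAS enzymes polymerize at the plasma membrane from UDP-glucuronic acid and UDP-N-acetylglucosamine and push out of the cell. CD44 is its main cell-surface receptor and links it to the cortical cytoskeleton through ezrin, radixin and moesin. HYAL2, held at the cell surface, and HYAL1, in lysosomes, cut the chain in turn, and TSG-6 moves heavy chains of inter-alpha-inhibitor onto it. In melanoma, hyaluronan and CD44 are studied for their part in adhesion and invasion.

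Library totals were 19512882 to 46862053 counted reads (median 28112904), so that 3 counts, the floor used here, were at most 0.154 CPM (TMM-normalised reads scaled to library size). Grpr was at 8.48 to 1283 CPM in the lines labelled as expressing it and at most 0.0915 CPM in the control lines, and Cdh1 was at most 0.119 CPM in 1057 and 1064, leaving aside a pair of libraries that went against their labels. With that pair left aside, Cdh1 was at 9.74 to 25.3 CPM in 1181-Grpr and 14.5 to 26.9 in 1181-Ctrl. It was lower in the other Ecad line, at 0.688 to 3.15 CPM in 1014-Grpr and 1.87 to 5.12 in 1014-Ctrl. Among the expressing lines Grpr was lowest in 1181-Grpr, with a median of 18.1 CPM (8.48 to 79.9). Its medians were 208 CPM in 1057, 778 in 1064 and 183 in 1014-Grpr. The library labelled 1014-Ctrl mock replicate 2 held 48.1 CPM of Grpr and 64.2 CPM of the Y-linked gene Ddx3y, which was at 0 in the other 1014-Ctrl libraries. The library labelled 1181-Grpr GRP+RC replicate 2 held neither Grpr nor Ddx3y, although every other 1181-Grpr library held both. Both were kept under their labels, and results that rest on them are given with and without them. All 7 melanocytic markers exceeded 1 TPM (the authors' unit, scaled to transcript length) in every line. Of 6 immune markers Cd68 alone did, as means over mock and GRP libraries. Ptprc, which defines leukocytes, was at 0 in every mock and GRP library of 1064 and 1014-Ctrl but not of the other lines, 1057 and 1014-Grpr included. Some fibroblast, endothelial and keratinocyte markers also exceeded 1 TPM. These were Pdgfra in 1057 and 1014-Ctrl, Col1a1 and Col1a2 in 1064, and Cdh5 in 1057 and 1064. Tek did so in 1057, and Krt10 in 1057, 1064, 1181-Grpr and 1181-Ctrl. The immune marker sum was 2.99 to 4.12 TPM under mock and 13.2 to 14.8 under GRP in 1057, and 5.83 to 9.03 and 12.2 to 23.2 in 1014-Grpr, with Cd68 up by 1.99 and 1.33 on the log2 scale, and the part of this in the changes below was not tested. In bulk RNA, fewer cells that express a gene and less RNA per cell cannot be told apart.

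On the mouse genome build GRCm38 the genes lie on 5 chromosomes. Has1 (ENSMUSG00000003665) is at chr17:17843323-17855205 on the minus strand, Has2 (ENSMUSG00000022367) at chr15:56665627-56694539 on the minus strand and Has3 (ENSMUSG00000031910) at chr8:106870242-106884566 on the plus strand. Cd44 (ENSMUSG00000005087) is at chr2:102811141-102901665 on the minus strand, and its gene-level counts do not separate the standard from the variant isoforms. Tnfaip6 (ENSMUSG00000053475) is at chr2:52038009-52056686 on the plus strand. Hyal2 (ENSMUSG00000010047), at chr9:107567945-107572779, and Hyal1 (ENSMUSG00000010051), at chr9:107576927-107581710, are neighbours on the plus strand. Of the exon bases of Hyal1, 51.9% are shared with other genes of the same strand, 50.8% with Naa80 and 4.2% with Hyal3, so that how the authors' counting split these reads can change its value. Exons of Has2 overlap the antisense Has2os over 4.3% of their bases, and those of Has3 overlap Chtf8 on the other strand over 5.5%.

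The windows from 250 bases before to 50 bases after the start site are shown, from RefSeq (GRCm38.p6), for 4 of the genes, Has1, Cd44, Hyal1 and Tnfaip6. RefSeq windows were matched for 5 of the 7 members, and Has2 and Has3 had none. Capitals mark matches, on either strand, to the motifs searched: AP-1 TGANTCA, the CRE core TGACG, TEAD GGAATG, NFAT GGAAA, the TATA box (TATAAA), the CArG box and the kappaB site.
Has1, chr17:17855139-17855438, minus strand: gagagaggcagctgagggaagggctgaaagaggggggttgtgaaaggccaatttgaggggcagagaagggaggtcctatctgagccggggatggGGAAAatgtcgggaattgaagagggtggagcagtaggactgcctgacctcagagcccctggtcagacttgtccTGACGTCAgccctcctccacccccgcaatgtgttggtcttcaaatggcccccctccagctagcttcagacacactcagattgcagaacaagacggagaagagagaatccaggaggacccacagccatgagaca
Cd44, chr2:102901616-102901915, minus strand: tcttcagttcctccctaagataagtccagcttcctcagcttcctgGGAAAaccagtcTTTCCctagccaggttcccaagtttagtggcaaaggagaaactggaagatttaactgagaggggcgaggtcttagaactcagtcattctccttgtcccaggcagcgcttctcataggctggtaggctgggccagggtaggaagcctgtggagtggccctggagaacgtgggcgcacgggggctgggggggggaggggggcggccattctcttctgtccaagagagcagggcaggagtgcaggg
Hyal1, chr9:107576700-107576999, plus strand: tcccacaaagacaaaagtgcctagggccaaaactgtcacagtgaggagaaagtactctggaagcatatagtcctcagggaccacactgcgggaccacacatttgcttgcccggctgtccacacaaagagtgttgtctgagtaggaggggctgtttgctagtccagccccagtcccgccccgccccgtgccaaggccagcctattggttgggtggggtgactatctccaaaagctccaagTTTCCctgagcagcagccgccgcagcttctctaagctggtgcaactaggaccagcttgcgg
Tnfaip6, chr2:52037863-52038162, plus strand: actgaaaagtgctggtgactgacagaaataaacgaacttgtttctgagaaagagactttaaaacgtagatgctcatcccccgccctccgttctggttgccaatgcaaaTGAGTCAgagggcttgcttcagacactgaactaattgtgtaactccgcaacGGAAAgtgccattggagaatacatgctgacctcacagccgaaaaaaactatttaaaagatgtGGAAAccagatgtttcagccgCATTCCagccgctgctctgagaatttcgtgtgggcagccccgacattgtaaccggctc
The Has1 window held 2 overlapping CRE cores on opposite strands, 83 and 80 bases before the start, in a motif found in 20.8% of 32851 mouse promoter windows. The Tnfaip6 window held an AP-1 match 142 bases before the start, the only one in the 5 windows and a motif of 7.81% of all windows. It also held a TEAD match (14.7% of windows) 8 bases before the start and 2 NFAT matches. The Cd44 window held 2 NFAT matches, and those of Hyal1 and Has1 held 1 each, a motif present in 61.3% of windows. The Hyal2 window (not shown) held a kappaB match (4.51% of windows) that overlaps a TEAD match by 1 base. No CArG box (1.63%) and no TATA match (13.6%) lay in any of the 5 windows. A match describes letters in the window and not a bound site.

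At rest the receptor gene stood far above the genes for its ligand's synthesis. Under mock Cd44 ranged from 178 to 558 TPM, the unit that allows genes to be compared, and Hyal2 from 32.1 to 54.7 TPM. Hyal1 lay between 2.79 and 21.5 TPM and Tnfaip6 between 0.12 and 10.95 TPM. Among the synthases Has1 was at 0 in all 18 mock libraries and Has3 at 0.1 to 1.2 TPM. Has2 was at 14.36, 4.82 and 2.04 TPM in 1181-Ctrl, above Tnfaip6 in each of these libraries, at 4.95, 3.17 and 2.72 TPM in 1181-Grpr and at most 0.13 TPM elsewhere, the library labelled 1014-Ctrl mock replicate 2 (2.21 TPM) apart. Over all treatments the 2 hyaluronidase genes together reached 36.7 to 76.0 TPM, whereas the 3 synthase genes together did not exceed 1.33 TPM outside the 1181 lines, again apart from the library labelled 1014-Ctrl mock replicate 2 (Has2 2.21 and Has3 0.47 TPM).

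**Figure D1:**
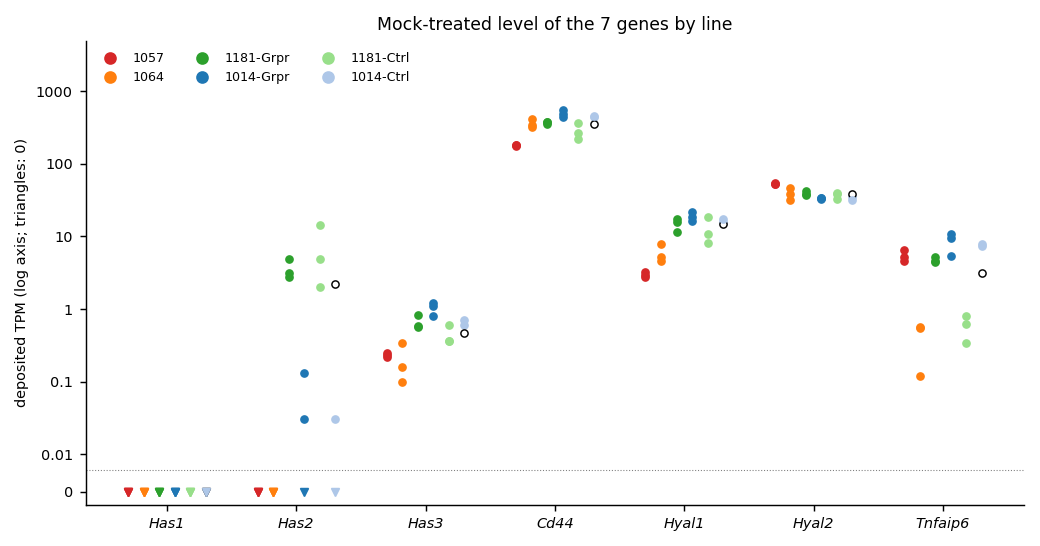
Deposited TPM of the 7 genes in the 18 mock-treated libraries, on a log axis, with points for single libraries coloured by line, triangles for values of 0 and an open point for the library labelled 1014-Ctrl mock replicate 2. Cd44 lies between 178 and 558 TPM in every library, and Has2 exceeds 2 TPM in the 1181 lines and in the open point.

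The 6 members that could be tested all differed among the 6 lines under mock (edgeR's quasi-likelihood F test over all genes, Benjamini-Hochberg adjusted p from 1.84e-12 for Tnfaip6 to 1.20e-07 for Has2), and 5 of them, all but Hyal2, by more than 2-fold between the extreme lines. Of all genes tested 88.9% passed the same test and 60.6% also passed the fold threshold, so a difference among these lines is the rule. Cd44 was highest in 1014-Grpr (921 ± 119.6 CPM, SD, n = 3 here and below) and lowest in 1057 (407 ± 13.8), and Hyal1 had the same extremes (19.5 ± 2.80 and 3.76 ± 0.243 CPM). Hyal2 ran the other way, from 58.5 ± 2.76 CPM in 1057 to 30.1 ± 0.689 in 1014-Grpr. For Cd44 the neighbours 1014-Grpr, 1064 and 1014-Ctrl overlapped in their libraries, as did 1181-Ctrl and 1057 and, through the library labelled replicate 2 alone, 1014-Ctrl and 1181-Grpr, while 1181-Grpr (655 to 695 CPM) lay above every library of 1181-Ctrl (403 to 636 CPM). For Hyal1 the 1014 and 1181 lines overlapped, 1064 overlapped 1181-Ctrl, and the 3 libraries of 1057 lay below all others. For Hyal2 the libraries of 1057 (56.1 to 61.5 CPM) lay above those of 1064 (32.5 to 53.6 CPM), which overlapped 1181-Grpr. Has3 ran from 1.81 ± 0.352 CPM in 1014-Grpr through 1181-Grpr, 1014-Ctrl and 1181-Ctrl to 0.492 ± 0.0334 in 1057 and 0.407 ± 0.229 in 1064, and the libraries of 1181-Ctrl (0.595 to 0.964 CPM) lay above those of 1057 (0.459 to 0.526 CPM). The order of 1181-Grpr (1.12 CPM) and 1014-Ctrl (1.04 CPM) turned without the library labelled 1014-Ctrl mock replicate 2 (1.14 CPM).

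Tnfaip6 separated the 2 versions of line 1181. Its order under mock was 1014-Grpr (4.04 ± 1.39 CPM), 1057, 1014-Ctrl, 1181-Grpr, 1181-Ctrl and 1064 (0.226 ± 0.137 CPM), in which 1181-Grpr and 1181-Ctrl were the neighbours without overlap. Without the library labelled replicate 2, 1014-Ctrl (3.60 CPM) ranked above 1057 (2.54 to 3.81 CPM), whose libraries then stood next to and above those of 1181-Grpr. Its mock values were 2.06, 2.09 and 2.42 CPM in 1181-Grpr and 0.347, 0.153 and 0.274 CPM in 1181-Ctrl. The groups did not overlap, and over all treatments 11 libraries of 1181-Grpr spanned 1.41 to 2.54 CPM against 0.0752 to 0.499 CPM in the 12 of 1181-Ctrl, the library labelled GRP+RC replicate 2 being at 4.87 CPM. The mock difference was 3.09 on the log2 scale (SE 0.48, edgeR adjusted p = 1.78e-06), 8.54-fold higher in 1181-Grpr. Tnfaip6 was the only member past the test in that comparison, in which 15.7% of all genes passed and 7.63% passed with a change above 2-fold. No member passed between the 1014 versions under mock (edgeR), where 4.69% of all genes did (3.43% above 2-fold, and 0.456% above 2-fold without the 2 libraries that went against their labels), although Has3 did so with DESeq2 and 2 members, Has3 and, through the library labelled 1014-Ctrl mock replicate 2, Has2, at an unadjusted p under 0.05. Has3 was at 1.42, 2.11 and 1.90 CPM in 1014-Grpr and 1.06, 0.825 and 1.22 CPM in 1014-Ctrl, without overlap (log2 difference 0.80, SE 0.26, adjusted p = 0.0724, 0.0452 with DESeq2 and 0.668 without those 2 libraries). Cd44 was 0.42 higher on the log2 scale in 1181-Grpr than in 1181-Ctrl (adjusted p = 0.0810, 0.0459 without the 2 libraries that went against their labels).

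The synthase genes differed by line in which member was transcribed. Has2, the main synthase of many mesenchymal cells, was at 0 counts in all 24 libraries of the ∆Ecad lines 1057 and 1064. In 1181-Grpr its mock counts were 194, 87 and 89 (5.48, 3.63 and 3.12 CPM), and in 1181-Ctrl they were 397, 177 and 49 (15.3, 5.41 and 2.24 CPM). The spread between replicates of 1181-Ctrl was wide, with replicate 1 the highest under each of the 4 treatments (11.7 to 15.3 CPM) and replicate 3 the lowest (1.58 to 2.96 CPM). In the 1014 lines Has2 had at most 7 counts per library, apart from 62 counts in the library labelled 1014-Ctrl mock replicate 2, and in 1181-Grpr it had 66 to 194 counts, apart from 0 in the library labelled GRP+RC replicate 2. Has2 made up 79.4% to 89.5% of the summed synthase TPM in the other 11 libraries of 1181-Grpr and 77.3% to 97.8% in 1181-Ctrl. Its share was 0 in 1057 and 1064 and at most 14.7% in 1014-Grpr, where the sum was far smaller (0.56 to 1.33 TPM) and Has3 was the highest of the 3 in every library. In GRP replicate 2 of that line Has1, at 0.54 TPM, came level with Has3, at 0.56 TPM. GRP left Has2 within this spread, with log2 changes against mock of -0.14 (SE 0.90) in 1181-Grpr and -0.16 (SE 0.92) in 1181-Ctrl, and the filter on low counts kept it out of the test in the other lines.

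Has1 counts appeared with GRP. The gene had 42 counts in 15 of 72 libraries and none in the 18 mock libraries. Under GRP it had 1, 8 and 4 counts in 1057, 2, 10 and 7 in 1014-Grpr, 2, 0 and 0 in 1181-Grpr and 0 in all libraries of 1064 and of the control lines. With GRP and RC together it had 1 count in each 1057 library and none in 1014-Grpr, and elsewhere no library held more than 1 count. The GRP libraries of 1057 and 1014-Grpr therefore stood above their mock libraries without overlap. The pooled GRP level was 4.49-fold a floor of 3 counts over the mock group in 1057 and 5.38-fold that floor in 1014-Grpr. With counting error (Poisson intervals), the GRP level was 0.0735 to 0.236 CPM in 1057, against at most 0.0378 CPM under mock. In 1014-Grpr the interval was 0.114 to 0.295 CPM, against at most 0.0431 CPM under mock. Has1 did not pass the filter on low counts in any line. An exact permutation test within lines, chosen after the counts had been seen, compared GRP with mock over the 4 GRPR-expressing lines. It gave a mean difference of 0.0848 CPM (two-sided exact p = 0.0025, 160000 arrangements, smallest possible 1.25e-05 without ties). Many arrangements tied, as Has1 was 0 throughout 1064 and had counts in 1 GRP library of 1181-Grpr. With these ties 0.0025 is the lowest p that the test could give for these counts. The difference came almost wholly from 1057 and 1014-Grpr. In the 2 control lines the difference was 0, all counts being 0. At 0.0342 to 0.328 CPM in the 6 GRP libraries of 1057 and 1014-Grpr this is a transcript close to the limit of these libraries.

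**Figure D2:**
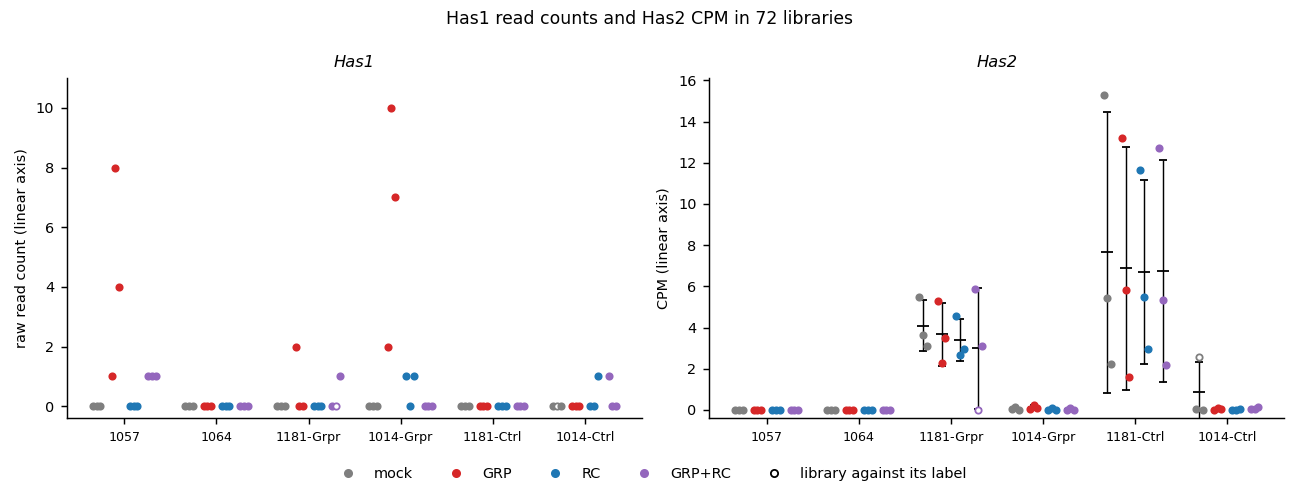
Raw read counts of Has1 (left) and CPM of Has2 (right) in 72 libraries by line and treatment, with points for single libraries, bars for the mean ± SD of 3 libraries in the Has2 panel, and open points for the 2 libraries that went against their labels. Has1 exceeds 2 counts in 4 libraries, all treated with GRP and from 1057 or 1014-Grpr, and Has2 is at 0 in 1057 and 1064.

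Has3, the remaining synthase, was the most evenly detected, at 4 to 70 counts in every library. In 1014-Grpr it was at 1.42, 2.11 and 1.90 CPM under mock and at 1.24, 1.05 and 1.07 CPM under GRP. The groups did not overlap, and Has3 fell by 0.69 on the log2 scale (SE 0.21, edgeR adjusted p = 0.0287). Leaving out replicate 1, 2 or 3 of the line ended the call, with changes of -0.90, -0.52 and -0.63 and adjusted p-values of 0.0574, 0.248 and 0.135, as did a fit of all 72 libraries (0.0714) or no filter on low counts (0.0733). With GRP and RC the values were 0.997, 0.988 and 1.19 CPM, at the level of GRP alone. In 1057 mock values of 0.492, 0.526 and 0.459 CPM stood above GRP values of 0.377, 0.384 and 0.257 CPM, a change of -0.51 (SE 0.29) that missed the test (adjusted p = 0.182). RC alone gave 0.244, 0.367 and 0.222 CPM there, which was as low. Chtf8, which shares exon bases with Has3 on the other strand, changed by -0.11 with GRP in 1014-Grpr (adjusted p = 0.203).

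Across the members, GRP raised Cd44, Hyal1, Hyal2 and Tnfaip6 in 1057, 4 of the 5 members tested there, against 52.6% of all genes that passed the same test in either direction. In 1014-Grpr 4 of 5 members passed, Cd44, Hyal1 and Hyal2 upward and Has3 downward, against 29.0% of all genes. Of these 8 changes 1, that of Hyal1 in 1057, was above 2-fold, as 6.46% of all genes were in 1057 and 4.01% in 1014-Grpr. None of the 4 members tested in 1064 passed, where 6.38% of genes did (2.32% above 2-fold, a share of 0% without replicate 1 or 2 and of 6.52% with the replicate block), with 2 at an unadjusted p under 0.05 and 0 with DESeq2. With the replicate block 3 of these 4 members passed, namely Cd44, Hyal2 and Tnfaip6. In 1181-Grpr none of the 6 members passed by edgeR or DESeq2 or at an unadjusted p under 0.05, and no gene at all passed (0%, and 0.108% above 2-fold without the 2 libraries that went against their labels and with the replicate block). In the control lines no member and no gene passed either (0% in 1181-Ctrl and 0% in 1014-Ctrl), with Has3 in 1014-Ctrl past an unadjusted p under 0.05. In a single fit of all 72 libraries 2.36% of genes passed above 2-fold in 1014-Ctrl, all downward, against a mock group that holds the library labelled replicate 2. In that fit 2.37% passed with RC alone against mock and 2.36% with GRP and RC, but 0% between GRP+RC and GRP. The fit within 1014-Ctrl gave 0% for GRP against mock with and without that library. The median change of the members tested was 0.45 in 1057 and 0.59 in 1014-Grpr on the log2 scale, with medians over all genes of -0.01 and -0.02. In that single fit, which gives every line the same spread, the calls of Cd44 in both lines, Hyal1 in 1057 and Hyal2 in 1014-Grpr held, and those of Hyal2 (adjusted p = 0.616) and Tnfaip6 (0.570) in 1057 and of Hyal1 (0.242) in 1014-Grpr did not.

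CD44 transcripts rose with GRP in 1057 and 1014-Grpr. In 1057 Cd44 was at 423, 397 and 400.0 CPM under mock and at 708, 725 and 711 CPM under GRP. All GRP libraries lay above all mock libraries, by 0.84 on the log2 scale (SE 0.028, edgeR adjusted p = 2.94e-14), or 1.79-fold. In 1014-Grpr the values were 923, 1039 and 799.8 CPM under mock and 1431, 1777 and 1628 CPM under GRP, again without overlap, a rise of 0.82 (SE 0.13, adjusted p = 0.000717), or 1.77-fold. Cd44 thus reached its highest level of the series, 899 TPM, in a GRP library of 1014-Grpr. In 1064 mock gave 724, 923 and 762 CPM and GRP gave 1209.7, 1179 and 847 CPM, with the third GRP library inside the mock range. The change of 0.43 (SE 0.16) missed the test (adjusted p = 0.146), whereas a fit that blocks on replicate number, by which the libraries of that line pair, gave 0.42 (adjusted p = 0.00261). In 1181-Grpr GRP libraries at 685, 645 and 675 CPM and mock libraries at 668, 655 and 695 CPM overlapped fully (-0.01, SE 0.16). In 1181-Ctrl and 1014-Ctrl the changes were -0.08 (SE 0.26) and 0.16 (SE 0.14).

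**Figure D3:**
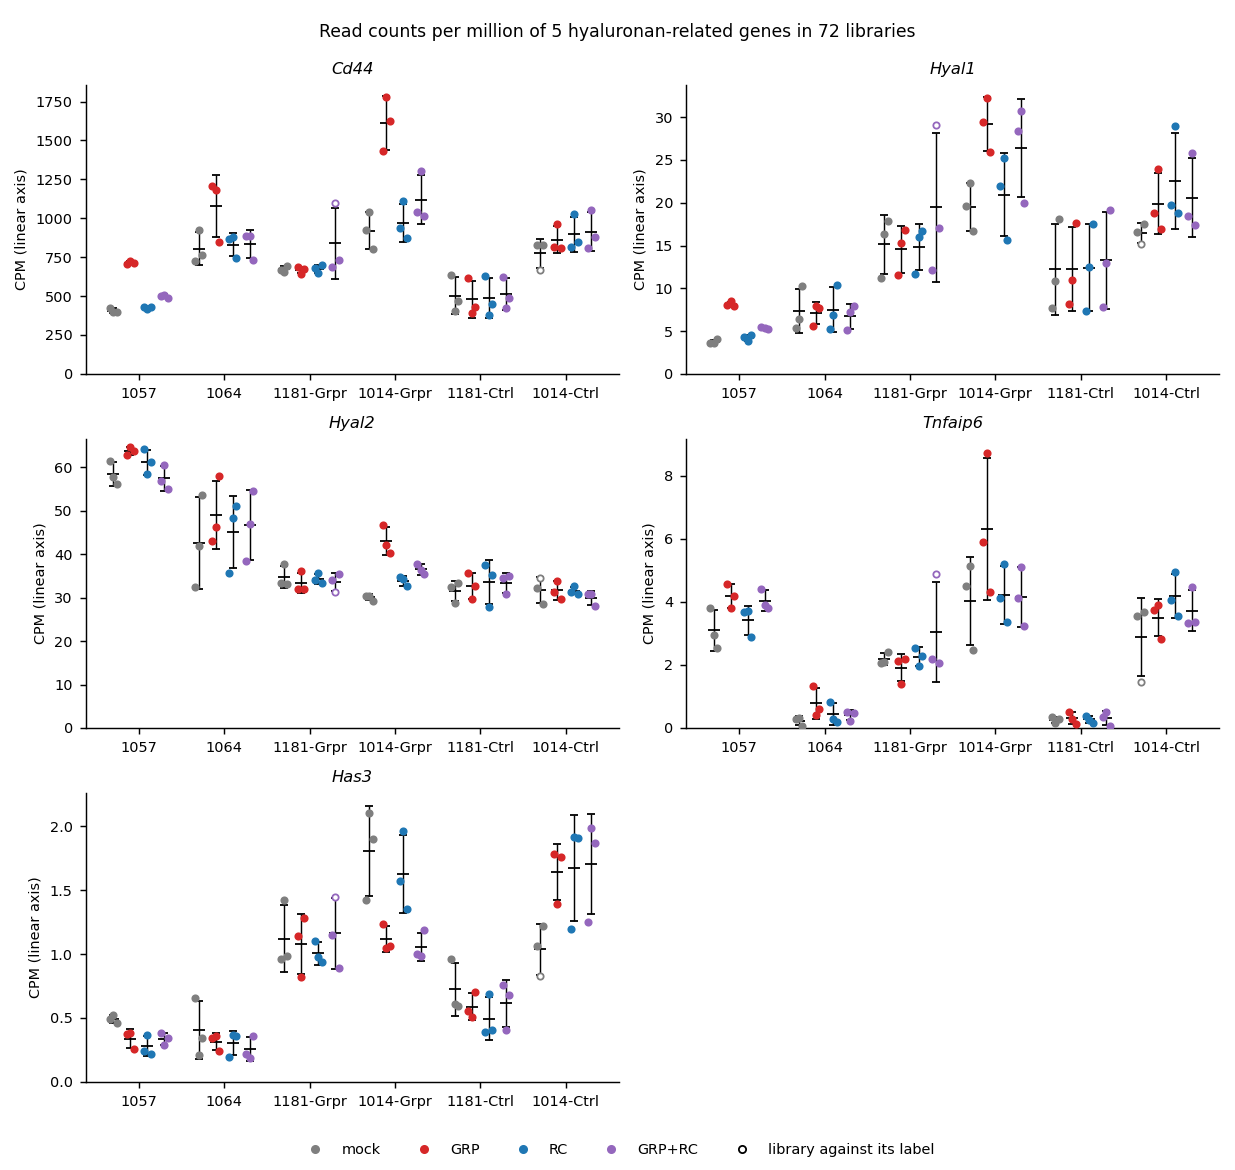
CPM of Cd44, Hyal1, Hyal2, Tnfaip6 and Has3 in 72 libraries by line and treatment on linear axes, with points for single libraries, bars for the mean ± SD of 3 libraries, and open points for the 2 libraries that went against their labels. The GRP libraries of Cd44 stand apart from the other treatments in 1057 (708 to 725 CPM) and in 1014-Grpr (1431 to 1777 CPM).

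Hyal1, the lysosomal hyaluronidase, changed most in 1057, the line in which it was lowest at rest. It was at 3.60, 3.65 and 4.04 CPM under mock and at 8.05, 8.47 and 7.93 CPM under GRP, without overlap, a rise of 1.14 (SE 0.088, edgeR adjusted p = 3.26e-09), or 2.20-fold. Naa80, the gene that shares 50.8% of the Hyal1 exon bases, rose by 0.48 in the same comparison (adjusted p = 1.63e-05), and Hyal3 was at 0.10 (adjusted p = 0.807). In 1014-Grpr Hyal1 was at 19.6, 22.3 and 16.7 CPM under mock and at 29.4, 32.2 and 25.9 CPM under GRP, a rise of 0.59 (SE 0.19, adjusted p = 0.0350) that did not pass without replicate 1 (0.59, adjusted p = 0.217) or replicate 2 (0.61, adjusted p = 0.0862). In 1064 the change was -0.06 (SE 0.31).

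Hyal2, the surface hyaluronidase, rose in the same lines by less. In 1014-Grpr it was at 30.5, 30.5 and 29.3 CPM under mock and at 46.7, 42.2 and 40.2 CPM under GRP, without overlap, a rise of 0.53 (SE 0.065, edgeR adjusted p = 0.000108), or 1.44-fold. In 1057 values of 61.5, 57.8 and 56.1 CPM under mock and 62.8, 64.7 and 63.8 CPM under GRP gave 0.15 (SE 0.042, adjusted p = 0.00555), which did not pass without replicate 3 (0.13, adjusted p = 0.0672). In 1064 mock and GRP libraries overlapped (0.21, SE 0.21, adjusted p = 0.633), and with the replicate block the change was 0.22 (adjusted p = 0.0235).

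Tnfaip6, a gene known for its induction by inflammatory signals, moved in 3 lines with differing certainty. In 1057 it was at 3.81, 2.94 and 2.54 CPM under mock and at 4.55, 3.81 and 4.18 CPM under GRP, the lowest GRP library being level with the highest mock library, and it rose by 0.45 (SE 0.14, edgeR adjusted p = 0.0115). Without replicate 3 the change was 0.34 (adjusted p = 0.107). In 1064 it had 7, 6 and 2 counts under mock and 31, 8 and 15 under GRP, without overlap, a change of 1.83 (SE 0.71, adjusted p = 0.159) that passed with the replicate block (1.86, adjusted p = 0.0105) and in a fit of all 72 libraries together (1.86, adjusted p = 0.0125). In 1014-Grpr values of 4.50, 5.14 and 2.47 CPM under mock and 5.90, 8.73 and 4.30 CPM under GRP overlapped, yet each GRP library lay above the mock library of its replicate number. That change was 0.63 (SE 0.30, adjusted p = 0.142), and 0.65 with the replicate block (adjusted p = 0.000154).

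Adding RC to GRP lowered part of these changes. Against GRP alone 3 of 5 members fell in 1057, where 24.7% of all genes passed in either direction, and 2 of 5 fell in 1014-Grpr, where 11.8% passed. No member moved by more than 2-fold, against 1.02% and 1.73% of all genes. Cd44 in 1057, at 503, 508 and 486 CPM with GRP and RC, lay between the mock and the GRP libraries and fell by 0.54 from GRP (SE 0.028, edgeR adjusted p = 2.75e-10). In 1014-Grpr the Cd44 values of 1041, 1301 and 1017 CPM lay below all GRP libraries and overlapped mock in part. There Cd44 fell by 0.54 as well (SE 0.13, adjusted p = 0.0200), but not past the test without replicate 1 (-0.58, adjusted p = 0.148) or replicate 3 (-0.46, adjusted p = 0.110). Hyal1 in 1057, at 5.52, 5.42 and 5.30 CPM, fell by 0.61 (SE 0.083, adjusted p = 2.20e-05) and also lay between both groups, and Naa80 fell by 0.41 in the same comparison (adjusted p = 0.000313). Hyal2 fell by 0.17 in 1057 (adjusted p = 0.00607, 0.102 without replicate 3) and by 0.25 in 1014-Grpr (adjusted p = 0.0265), the latter being lost without any 1 of the 3 replicates (adjusted p of 0.166, 0.224 and 0.0586 without replicate 1, 2 and 3). With the replicate block Tnfaip6 (-0.61, adjusted p = 0.000672) and Hyal1 (-0.18, adjusted p = 0.0391) passed too in 1014-Grpr, where the fit without the block gave adjusted p-values of 0.235 and 0.647. In the single fit of all 72 libraries none of these falls passed (adjusted p of 0.309 and 0.0791 for Cd44 in 1057 and 1014-Grpr, 1 for Hyal1 in 1057 and 1 and 0.411 for Hyal2), at sizes of -0.52 and -0.53 for Cd44.

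In 1064 none of the 4 members passed between GRP+RC and GRP, as 0.0290% of genes did, with Cd44 (-0.38, adjusted p = 0.462) past an unadjusted p under 0.05 and past the adjusted threshold with the replicate block (-0.37, adjusted p = 0.0126), and 0 members with DESeq2. In 1181-Grpr no gene and no member passed (0%), and the changes of Cd44 (0.35, SE 0.16) and Tnfaip6 (0.68, SE 0.34) there became 0.09 and 0.15 without the library that went against its label. Against mock, 3 of 5 members were still higher with GRP and RC in 1057, where 44.3% of genes passed: Cd44 by 0.30 (adjusted p = 8.54e-08), Hyal1 by 0.53 (adjusted p = 0.000139) and Tnfaip6 by 0.39 (adjusted p = 0.0329, and 0.124 and 0.154 without replicate 2 and 3). None of these passed in the single fit of all 72 libraries (adjusted p of 0.412, 0.461 and 0.758). In 1014-Grpr no member passed by edgeR in that comparison (0.947% of genes did, with 3 members at an unadjusted p under 0.05 and Hyal2 with DESeq2). With the replicate block 4 did, Cd44 at 0.28 (adjusted p = 0.00107), Hyal1 at 0.42 (adjusted p = 0.000429), Hyal2 at 0.28 (adjusted p = 0.000564) and Has3 at -0.77 (adjusted p = 0.0232). No member passed in 1064 or 1181-Grpr, where no gene did (0% in both).

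**Figure D4:**
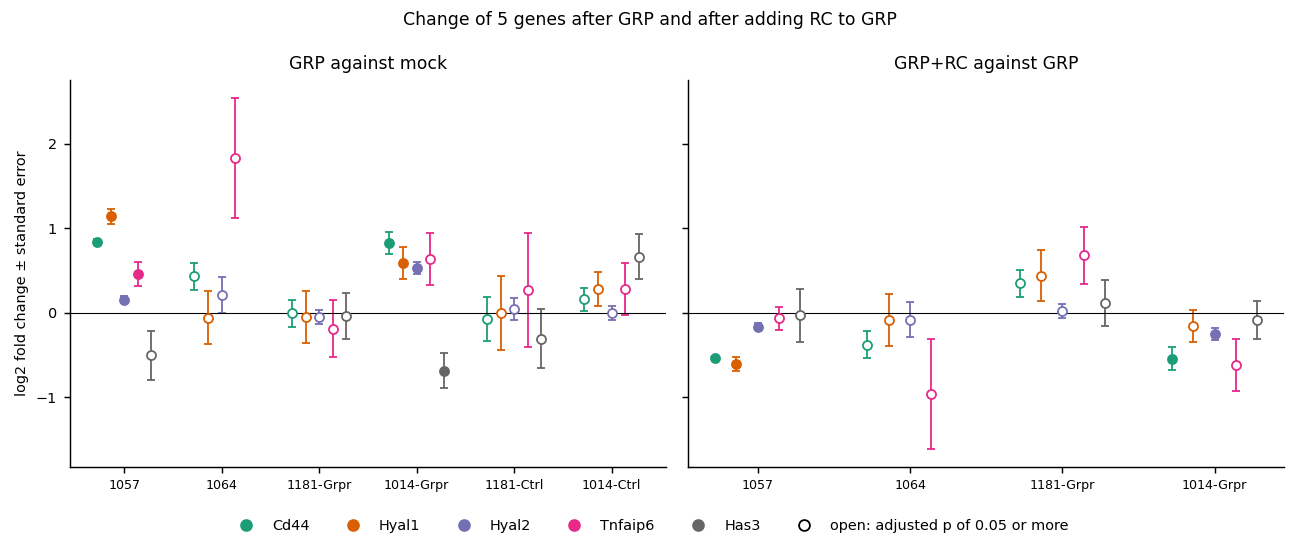
Log2 fold change ± standard error of Cd44, Hyal1, Hyal2, Tnfaip6 and Has3 for GRP against mock in 6 lines (left) and for GRP+RC against GRP in the 4 GRPR-expressing lines (right), with filled points at an adjusted p under 0.05. Filled points occur in 1057 and 1014-Grpr alone, and in the right panel all of them lie below 0.

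RC without GRP changed no member past the test in any of the 4 GRPR-expressing lines (edgeR), although 24.3% of all genes passed in 1057 and 0% in 1064, 1181-Grpr and 1014-Grpr. At an unadjusted p under 0.05 there were 2 in 1057, Cd44 at 0.06 and Has3 at -0.81 (SE 0.31, adjusted p = 0.0672), and Hyal2 in 1014-Grpr at 0.17, and DESeq2 called 0.

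The GRP effect itself differed between 1014-Grpr and 1014-Ctrl for 3 of 5 members, against 13.6% of all genes. The difference was 0.66 for Cd44 (SE 0.20, edgeR adjusted p = 0.0313) and 0.53 for Hyal2 (SE 0.11, adjusted p = 0.00218). For Has3 it was -1.35 (SE 0.34, adjusted p = 0.0105), above 2-fold as 3.89% of genes were. Has3 was lower with GRP in 1014-Grpr, whereas in 1014-Ctrl it stood at 1.06, 0.825 and 1.22 CPM under mock and at 1.78, 1.39 and 1.76 CPM under GRP (0.66, SE 0.27, adjusted p = 0.698), a change of the opposite sign. Against the same mock libraries of 1014-Ctrl, Has3 was as much higher with RC alone (0.68, SE 0.27, adjusted p = 0.659). With GRP and RC it was higher by 0.70 (SE 0.27, adjusted p = 0.654), and GRP+RC against GRP gave 0.04 (SE 0.26). The difference between the versions thus rests in part on the mock level of 1014-Ctrl. Without the 2 libraries that went against their labels the differences between the versions were 0.76 (adjusted p = 0.0101), 0.47 (adjusted p = 0.00253) and -1.21 (adjusted p = 0.0189). In the single fit of all 72 libraries Cd44 (adjusted p = 0.0932) and Hyal2 (0.0547) did not pass. The calls were lost without replicate 1 for Cd44 (adjusted p = 0.199) and Hyal2 (adjusted p = 0.115), without replicate 2 for Has3 (adjusted p = 0.103), and without replicate 3 for Cd44 (adjusted p = 0.321) and Has3 (adjusted p = 0.125). Without those libraries and with the replicate block, Hyal1 (0.58, adjusted p = 4.66e-05) and Tnfaip6 (0.82, adjusted p = 0.00119) passed as well. Between the 1181 versions none of 6 members and no gene passed (0%, edgeR and DESeq2, and no member at an unadjusted p under 0.05).

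Averaged over the 4 GRPR-expressing lines, 4 of 6 members passed between GRP and mock, as 25.9% of all genes did. Cd44 rose by 0.51 (SE 0.084, edgeR adjusted p = 3.48e-06), Tnfaip6 by 0.68 (SE 0.21, adjusted p = 0.0127) and Hyal2 by 0.20 (SE 0.060, adjusted p = 0.0101), and Has3 fell by 0.42 (SE 0.15, adjusted p = 0.0300). Hyal1, at 0.39 (SE 0.15, adjusted p = 0.0514), passed with the replicate block (0.40, adjusted p = 3.82e-06), with DESeq2 (0.0364), with RLE size factors (0.0465), without replicate 3 (0.0425) and without the 2 libraries that went against their labels (0.0396). No member passed in 1181-Grpr, which is 1 of the 4 lines averaged. Cd44 kept its call without each replicate in turn. Tnfaip6 lost its call without replicate 1 or 3 (adjusted p of 0.142 and 0.122), Hyal2 without replicate 2 (0.0869) and Has3 without replicate 1, 2 or 3 (0.129, 0.110 and 0.194) or with DESeq2 (0.0617). In the mean of the 2 control lines no member passed (edgeR and DESeq2, 1 at an unadjusted p under 0.05, Has2, and none without the 2 libraries that went against their labels), against 1.09% of genes, a share that was 0% without these libraries or without any 1 replicate, with Cd44 at 0.04 (SE 0.12). The mean of GRP+RC against GRP over the 4 lines passed for Cd44 alone, at -0.27 (SE 0.083, adjusted p = 0.0364), where 6.88% of genes passed. That call was lost without replicate 1 (adjusted p = 0.165) or replicate 3 (adjusted p = 0.394), and with the replicate block Hyal2 passed too (-0.11, adjusted p = 0.00304). Without the 2 libraries that went against their labels and with the block, Tnfaip6 (-0.39, adjusted p = 0.00275) and Hyal1 (-0.19, adjusted p = 0.00088) passed as well.

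Genes that supply the sugar nucleotides for hyaluronan also moved with GRP. Of the 8 listed enzymes of UDP-sugar supply, 7 rose in 1057, where 52.6% of all genes passed in either direction, with a list median of 0.63 on the log2 scale against -0.01 over all genes. Uap1, which makes UDP-N-acetylglucosamine (chr1:170141938-170174957, minus strand), was at 44.2, 40.9 and 41.3 CPM under mock and at 107, 111 and 109 CPM under GRP, a rise of 1.39 (SE 0.038, edgeR adjusted p = 1.94e-15). Gfpt1, whose enzyme commits glucose to the hexosamine pathway (chr6:87042846-87092197, plus strand), rose by 1.28 there (SE 0.035, adjusted p = 1.94e-15). Pgm3 of the same pathway rose by 0.88 and Ugdh, which makes UDP-glucuronic acid, by 0.63. Uap1 also rose in 1064, from 59.7, 44.7 and 66.9 CPM to 179, 109.6 and 103 CPM (1.20, SE 0.24, adjusted p = 0.0204), and in 1014-Grpr, from 49.9, 42.5 and 50.1 CPM to 62.0, 57.5 and 69.3 CPM (0.42, SE 0.10, adjusted p = 0.00964). No gene of 1064 passed above 2-fold when replicate 1 or replicate 2 was left out. Of the 8 genes 3 rose in 1014-Grpr (Uap1, Pgm3 and Gnpnat1, where 29.0% of all genes passed), 1 in 1064 (6.38% of all genes) and none in 1181-Grpr or the control lines, and with RC added Uap1 fell by 0.44 from GRP in 1057 (adjusted p = 6.87e-08).

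Among 11 partners of CD44, of which 9 were tested in 1057 and in 1014-Grpr, 3 rose and 4 fell in 1057 (52.6% of all genes passed), and 3 rose and 2 fell in 1014-Grpr (29.0% of all genes), with list medians of -0.11 and -0.13. The 2 with the largest changes were Spp1, which encodes the secreted CD44 ligand osteopontin (chr5:104435118-104441050, plus strand), and Ezr, which encodes ezrin (chr17:6738041-6782784, minus strand). Spp1 was at 49.0, 41.0 and 42.1 CPM under mock and at 157, 149.8 and 156 CPM under GRP in 1057 (1.83, SE 0.052, edgeR adjusted p = 2.60e-15), and rose by 0.73 in 1014-Grpr (adjusted p = 0.00105). In the annotation 18.8% of its exon bases are shared with Gm42793 on the same strand. Ezr rose by 1.14 in 1057 (adjusted p = 6.12e-14) and by 0.48 in 1014-Grpr (adjusted p = 0.00109). Moesin (Msn) rose in both lines by 0.19 and 0.39, while radixin (Rdx), the remaining member of that linker family, fell in both by 0.27 and 0.22. The sheddases Adam10 and Adam17 and the linker regulator Nf2 were the others that fell in 1057, by 0.14, 0.15 and 0.11, and Mmp14 fell in 1014-Grpr, by 0.22. The splicing regulators Esrp1 and Esrp2, which act on the variant exons of CD44, passed the filter on low counts in 3 lines (Esrp1) and in 1057 (Esrp2) and did not pass the test, at -0.56 for Esrp1 in 1014-Grpr (adjusted p = 0.601) and -0.44 for Esrp2 in 1057 (adjusted p = 0.275).

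Of the 7 other hyaluronan receptors, 3 of 5 tested rose in 1014-Grpr, where 29.0% of all genes passed, and 1 of 3 rose and 1 fell in 1057, where 52.6% did. Lyve1, the receptor of lymphatic endothelium (chr7:110850607-110863239, minus strand), had 0 counts in the mock libraries of 1014-Grpr and 97 counts in its 3 GRP libraries (0.558, 1.80 and 0.621 CPM), and 2 counts with GRP and RC. The pooled GRP level was 27.5-fold a floor of 3 counts over mock. Its Poisson interval was 0.782 to 1.18 CPM, against at most 0.0431 CPM under mock. In the other lines Lyve1 had at most 6 counts in any group. Tlr4, which also binds hyaluronan fragments, rose by 0.97 in 1014-Grpr (SE 0.12, edgeR adjusted p = 8.77e-05) and by 0.67 in 1057 (SE 0.047, adjusted p = 8.50e-10). Layn, named after its value was seen, rose by 0.87 in 1014-Grpr (adjusted p = 1.14e-05), and Hmmr fell by 0.28 in 1057 (adjusted p = 0.00431). Stab1 and Stab2 did not pass where tested.

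Of the 10 other breakdown genes, Cemip2, a cell-surface hyaluronidase, fell by 0.83 in 1057 (SE 0.033, edgeR adjusted p = 2.59e-13) and by 0.48 in 1014-Grpr (SE 0.13, adjusted p = 0.0154), opposite in direction to Hyal1 and Hyal2 in the same lines. Cemip rose by 0.31 in 1057, and Hyal3 passed in no line. Of the 11 hyaluronan-binding matrix genes, Habp4 fell in 1057 (by 0.20) and in 1014-Grpr (by 0.29), Hapln4 rose by 0.38 in 1057, and Vcan, Ncan and Hapln1 did not pass with GRP in any line. None of the 6 genes of inter-alpha-inhibitor, the source of the heavy chains that TSG-6 transfers, passed the filter on low counts in any line. In the mean of the 4 GRPR-expressing lines, in which 25.9% of all genes passed, 6 of 8 UDP-sugar genes rose, 3 of 10 partners tested rose (Spp1, Ezr and Msn) and 2 fell (Rdx and Adam10), 1 of 7 receptors (Tlr4) rose, and 1 of 6 breakdown genes (Cemip2) and 1 of 6 matrix genes (Habp4) fell.

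The genes whose pattern over lines and treatments was most like that of Tnfaip6, the member with the largest mean change tested in all 4 GRPR-expressing lines, were Tcaf1, Arpc5, Capzb, Golim4 and Gmfb. Their Pearson correlations were 0.937 to 0.921 over 24 group means of log2 CPM relative to the mock mean of the line, of which 6 are 0 by construction. For Cd44 they were Parvb, Pacsin2, Zfp330, Frmd4a and Mphosph6 (0.951 to 0.945). These are the highest values among 11947 genes in groups that share mock libraries, and 1 of the 5 genes of each list, Tcaf1 and Zfp330, stayed among the 5 without the 2 libraries that went against their labels.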

How the data were processed

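RNA was sequenced from 72 samples of 6 lines under 4 treatments. Per the labels and the methods of the study, total RNA was made into stranded poly(A) libraries, read in pairs and aligned to the mouse genome (mm10, GRCm38.p5) with STAR after FastQC 0.11.5, and the STAR version and the strand setting of the counting are not given in the sources used here. For each gene the authors deposited the unscaled read count and a TPM value, scaled by them to gene length and library. The TPM columns of 1057 use a decimal comma, which was read as a point. Symbols were paired with 99.6% of the gene identifiers.

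Groups came from the labels. Genes were filtered with filterByExpr, TMM-normalised and tested with edgeR 4.0.16 (R 4.3.3) quasi-likelihood F tests on the counts. The fits were within each line or, for means over lines and differences between lines under mock, over 72 libraries. Differences of the GRP effect between 2 versions of a line were fitted over the libraries of these versions alone. P-values were Benjamini-Hochberg adjusted over all genes tested, so every adjusted p is from edgeR unless DESeq2 1.42.0 is named. A gene passed at an adjusted p under 0.05, and calls with a fold threshold also needed an absolute log2 fold change above 1. Log2 changes are given with the standard error computed from the F statistic. CPM are TMM-scaled over 72 libraries, and gene levels are compared between genes in TPM. Positions and exon overlaps came from a later GENCODE release on GRCm38 than the one counted. Intervals and floors of 3 counts cover counting error only. No 2 replicates agreed within sampling noise (smallest chi-square per degree of freedom 2.44 over 72 pairs).

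Same-numbered mock and GRP libraries deviated together from their group means in 5 lines, with every correlation above 0.1 (0.583 to 0.721 in 1064, 0.497 to 0.735 in 1181-Grpr, 0.434 to 0.513 in 1014-Grpr, 0.750 to 0.852 in 1181-Ctrl and 0.118 to 0.276 in 1014-Ctrl), and not in 1057 (0.00758 to 0.0483). Values with the replicate number as a block are given where they change a call.

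The members and lists were chosen with earlier results of these data known. All 7 members are named, with at most 4 genes a list, those called in the most GRPR-expressing lines and then with the largest mean absolute log2 change, plus any gene said to be named later and the genes behind counts of 5 or fewer. The result of 1 listed gene is not reported here. The test of Has1 was added after its counts had been seen. The fits were repeated with DESeq2, with RLE size factors, with low counts kept, with calls by the adjusted p alone, over all 72 libraries at once, with replicate number as a block, leaving out a replicate at a time, and without the 2 libraries that went against their labels.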

Additional observations from a re-analysis of the deposited data

Results flagged for a closer look

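For 3 of 5 members the GRP effect differed between 1014-Grpr and 1014-Ctrl by a test of the difference itself (edgeR's quasi-likelihood test, adjusted over all genes), as it did for 13.6% of all genes. The difference was 0.66 on the log2 scale for Cd44 (adjusted p = 0.0313), 0.53 for Hyal2 (adjusted p = 0.00218) and -1.35 for Has3 (adjusted p = 0.0105), the last above 2-fold as for 3.89% of genes. Each call was lost in at least 1 fit that left out a replicate (highest adjusted p of 0.321, 0.115 and 0.125). Cd44 and Hyal2 rose with GRP in 1014-Grpr and were at 0.16 and -0.0049 in 1014-Ctrl. For Has3 the versions moved in opposite directions, -0.69 in 1014-Grpr and 0.66 in 1014-Ctrl, the latter not past the test (adjusted p = 0.698), with 1 of the 3 mock libraries of 1014-Ctrl against its label. In 1014-Ctrl Has3 was higher than mock by as much with RC alone (0.68) and with GRP and RC (0.70). Groups held 3 libraries each, which is too few for a test of single outlying libraries.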

How the results depend on the processing

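Among the log2 changes of members, 44 passed under at least 1 setting. Their 368 values under alternatives were past the threshold as in the report in 292 cases, no longer past it in 47 and newly past it in 29, none with the sign reversed. The other 84 passed under no setting, and 65 of their 739 values had the other sign. Cd44 with GRP in 1057 and 1014-Grpr, Hyal1 in 1057 and Hyal2 in 1014-Grpr passed under every alternative run.

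Of 247 alternative counts of members called with a fold above 2, 15 moved by over 1.5 times. Without the filter on low counts Has1 entered the test, and the counts with GRP were 2 in 1057 (1 with the filter) and 1 in 1014-Grpr (0 with it), and 1 for GRP+RC against GRP in 1014-Grpr, at adjusted p of 0.00397, 0.00751 and 0.0252. Of all genes 4.17%, 2.44% and 1.03% were called in these comparisons without the filter. By the adjusted p alone the counts were 4 in 1057 and 4 in 1014-Grpr with GRP, 3 and 2 for GRP+RC against GRP, 3 for GRP+RC against mock in 1057, 3 for the difference between the 1014 versions, 4 for the mean over the GRPR-expressing lines and 1 for the mean of GRP+RC against GRP. In 1064 the count with GRP was 1 (Tnfaip6) in the single fit of all 72 libraries and 1 with the replicate block. The count for the difference between the 1014 versions ranged from 0 to 1 when a replicate was left out (0 without replicate 2 or 3).

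The replicate block changed no called count other than that of 1064, and its changes of single calls stand beside the results (the Tnfaip6 rise in 1064 was 1.86 with the block). It was not run for differences between lines under mock, with which it is confounded. Levels under mock in TPM in place of CPM moved by more than the replicate SD in 8 of 36 cases. Depth limits Has1 throughout and Has2 outside the 1181 lines to counts near the floor.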
